A study of Drosophila melanogaster with 2 samples.

Results

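The genes described are 8 peroxins of Drosophila melanogaster: Pex2, Pex3, Pex5, Pex6, Pex10, Pex13, Pex14 and Pex19. They were chosen by family name, with the summits and signals of these peak lists already known, from the 13986 protein-coding genes of the Ensembl annotation. The experiment was chromatin immunoprecipitation followed by sequencing (ChIP-seq) with an antibody against GFP, on chromatin of whole adult male flies that express tHMG1 (CG7045) with GFP fused to its C-terminus. The name of tHMG1, which has an HMG box, refers to expression in the testis. Both biological replicates, numbered 1 and 3 in the labels, carried the same fusion gene and formed 1 group, at an age given as unknown, so no contrast between conditions was possible. The tissues that contributed a peak could not be told apart in whole animals. The values are deposited peak lists: a pooled list and a list of each replicate with 30000 peaks each, background included, and a list of 4574 peaks kept by the authors after an irreproducible discovery rate (IDR) analysis of the replicates. Each peak has a summit and a signal, which is the enrichment value of the authors' peak caller and is comparable only within a list. Read depth was unknown.

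Peroxins build the peroxisome, the organelle that oxidises very long fatty acids and breaks down hydrogen peroxide. Pex5 is the receptor that carries most matrix enzymes to the organelle, and Pex13 and Pex14 form the docking site for it in the membrane. Pex2 and Pex10 are RING-finger ubiquitin ligases that mark the receptor for recycling, and the ATPase Pex6 helps to pull it back into the cytosol. Pex3, Pex16 and Pex19 insert the proteins of the peroxisomal membrane, with Pex19 as the soluble carrier and Pex3 as its anchor. Male flies that lack Pex2 or Pex10 are known to be sterile, with defects in spermatocytes.

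Of the 8 genes, 4 had an IDR summit within 500 bp of an annotated transcription start site (TSS): Pex6, Pex10, Pex13 and Pex14. Across the annotation 21.4% of protein-coding genes met the same rule. These peaks are the measurement by which the family was looked at, so the count is a description and was not tested. Pex2, Pex3 and Pex5 had no IDR summit in that window but had one in the unthresholded pooled list, and Pex19 had none in either. That made 7 of 8 genes in the pooled list, in which 55.7% of protein-coding genes had a summit. In the whole list of replicate 1 all 8 had one, against 55.2% of protein-coding genes, and in that of replicate 3 it was 7, against 54.0%. With IDR peaks and a 250 bp window, Pex14 dropped out and 3 of 8 genes were left, against 17.4%. The count was 4 of 8 with a 1000 bp window (24.6% of protein-coding genes), with 1 TSS per gene (19.0%) and with any base of the peak in the window (23.0%). The weakest listed peroxin in the IDR list was Pex14, with a pooled signal of 171.3, and the strongest outside it was Pex2, with 77.2. The lowest signal in the IDR list was 90.3, so no member lay close to the threshold on the inside. For the window, the member just inside was Pex14, with its IDR summit 449 bp from its TSS. In the IDR list the one just outside was Pex2, with its nearest summit at 1597 bp. In the pooled list it was Pex19, with its nearest summit at 676 bp.

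Sequence is shown for 3 peroxin summits that fell outside annotated exons, as the exon-free stretch within 150 bp of the pooled summit, on the plus strand of the RefSeq release 6 assembly (dm6). The first stretch lies in an intron of Pex10 and the second between Pex14 and Pex16, and both are shown because they hold IDR summits of listed genes. The third lies between Pex11c and wda and is shown for comparison because it holds 2 matches to AACAAT, the letters of an SRY-type HMG-box site, on either strand. Capitals mark every match to the motifs named further on, and the first stretch holds none. The CGATA match counted for Pex10 further on lies at 1558551 to 1558555, to the left of the stretch shown.
Pex10 chr3L:1558562-1558656: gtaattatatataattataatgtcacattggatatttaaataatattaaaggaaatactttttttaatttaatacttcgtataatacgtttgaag
Pex14 and Pex16 chr3L:20778265-20778499: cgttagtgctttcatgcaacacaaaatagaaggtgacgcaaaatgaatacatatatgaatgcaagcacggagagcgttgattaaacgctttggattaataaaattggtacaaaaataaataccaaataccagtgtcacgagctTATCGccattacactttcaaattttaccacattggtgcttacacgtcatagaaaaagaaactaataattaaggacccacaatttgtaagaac
Pex11c chr3R:23258089-23258364: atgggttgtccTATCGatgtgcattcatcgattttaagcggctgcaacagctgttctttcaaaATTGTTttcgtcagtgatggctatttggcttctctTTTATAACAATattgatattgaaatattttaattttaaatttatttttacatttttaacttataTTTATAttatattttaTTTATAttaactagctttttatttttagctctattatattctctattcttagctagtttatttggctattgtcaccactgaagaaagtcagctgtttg
The Pex10 stretch is 95 bp long with 16.8% G and C, and the summit is its base 30. The stretch between Pex14 and Pex16 is 235 bp long with 34.5% G and C, with the summit at base 86. The Pex11c stretch is 276 bp long with 26.8% G and C, with the summit at base 151.

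Pex6, an ATPase that extracts the receptor, had the strongest peak of the 8 genes. On 2R it spans 10879677 to 10880012, and its summit lay in intergenic sequence 107 bp upstream of the Pex6 TSS and 194 bp upstream of the TSS of Taf5, which encodes a subunit of the general transcription factor TFIID and is read in the opposite direction. The signal was 425.1 in the pooled list, 254.5 in replicate 1 and 174.6 in replicate 3. These values ranked 331st, 333rd and 344th in their lists, so the place of this peak was nearly the same in both replicates. Of the 2649 IDR peaks at promoters, 237 were stronger. By pooled signal alone, the promoter peaks ranked directly above it were nearest to papi, a Tudor-domain protein of the piRNA pathway, with a signal of 425.8, and to lncRNA:CR43626, with 426.4. Those directly below were nearest to APP-BP1, a subunit of the enzyme that activates NEDD8, with 424.3, and to RapGAP1, a GTPase-activating protein, with 423.6.

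Of the listed ubiquitin ligase genes, Pex10 had an IDR peak and Pex2 did not. The Pex10 peak spans 1558473 to 1558797 on 3L, with its summit in an intron of the longer Pex10 transcript. That summit was 363 bp downstream of the upstream TSS of Pex10, 191 bp upstream of its second TSS, and 107 bp upstream of the TSS of CG12099, which lies between them on the other strand and is nearest. The signal was 359.9 in the pooled list, 203.5 in replicate 1 and 154.8 in replicate 3, with ranks of 492, 557 and 443. The strongest summit lay 163 bp upstream of the second TSS in replicate 1 and 195 bp upstream in replicate 3, between the same starts in both. Replicate 3 also had a weak summit 8 bp downstream of the second TSS, outside that interval, with a signal of 19.3.

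Pex2, the partner ligase, had a weak summit 24 bp downstream of its only TSS, in its 5' UTR on 3L. The signal was 77.2 in the pooled list, 26.9 in replicate 1 and 47.1 in replicate 3. The replicates differed at this gene: the peak ranked 3865th in replicate 3, within the 4574 strongest of that list, and 10856th in replicate 1. With the 4574 strongest peaks of replicate 3 taken alone, Pex2 joined the other 4 genes and the count was 5 of 8, against 20.7% of protein-coding genes. With those of replicate 1 alone the count was 4 of 8, against 21.7%. The nearest IDR summit to Pex2 was 1597 bp downstream of its TSS, in an intron of Prim1, a subunit of DNA primase, with a signal of 189.1 and nearest to the TSS of CG7083.

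Both docking genes had IDR peaks of almost equal signal. The Pex13 peak, on 2R at 13230097 to 13230540, had an intergenic summit 85 bp upstream of the Pex13 TSS and 264 bp from the TSS of fsd, read the other way. Its signal was 172.1 in the pooled list, 114.5 in replicate 1 and 50.9 in replicate 3. It was clearly higher placed in replicate 1, at rank 1454, than in replicate 3, at rank 3413. A second, weaker pooled summit lay 290 bp upstream with a signal of 89.1, just under the lowest IDR signal, and both replicates also had a pair of summits there. The Pex14 peak, on 3L at 20778128 to 20778571, had a signal of 171.3 in the pooled list, 113.1 in replicate 1 and 65.8 in replicate 3. Its summit, whose sequence is given above, was 449 bp upstream of Pex14 and 86 bp upstream of Pex16. A weaker pooled summit, with a signal of 34.2, lay 249 bp upstream of Pex14, which was its nearest gene. Both replicates had such a summit too, 265 bp upstream in replicate 1 and 249 bp upstream in replicate 3. Pex14 and Pex16 start 535 bp apart on opposite strands. Thus 1 IDR peak counted for 2 peroxins and was nearer to the one that is not among the 8. With Pex11ab, Pex11c, Pex16 and Pex23, 8 peroxins had an IDR summit in the window, and these rested on 7 distinct peaks.

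The ratio of the replicate 1 signal to the replicate 3 signal placed these genes against other promoters. It was 1.46 for Pex6, 1.31 for Pex10, 2.25 for Pex13 and 1.72 for Pex14. Outside the IDR list it was 0.57 for Pex2, 1.21 for Pex3 and 1.28 for Pex5. The replicate peaks compared had summits at different places. At Pex13 these lay 77 bp upstream in replicate 1 and 6 bp upstream in replicate 3, and at Pex6 131 and 68 bp upstream. At Pex2 they lay 48 bp downstream in replicate 1 and 25 bp upstream in replicate 3. At Pex3 and Pex5 they lay further apart. The median ratio over 2634 IDR promoter peaks with an overlapping peak in both replicates was 1.41. The 10th percentile was 0.87 and the 90th percentile 2.09. Pex13 therefore lay above the range between these percentiles, while Pex6, Pex10 and Pex14 lay inside. Of the genes without an IDR peak, which did not enter the range, Pex2 lay below it and Pex3 and Pex5 lay inside. With 2 replicates these differences could not be tested.

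**Figure D1:**
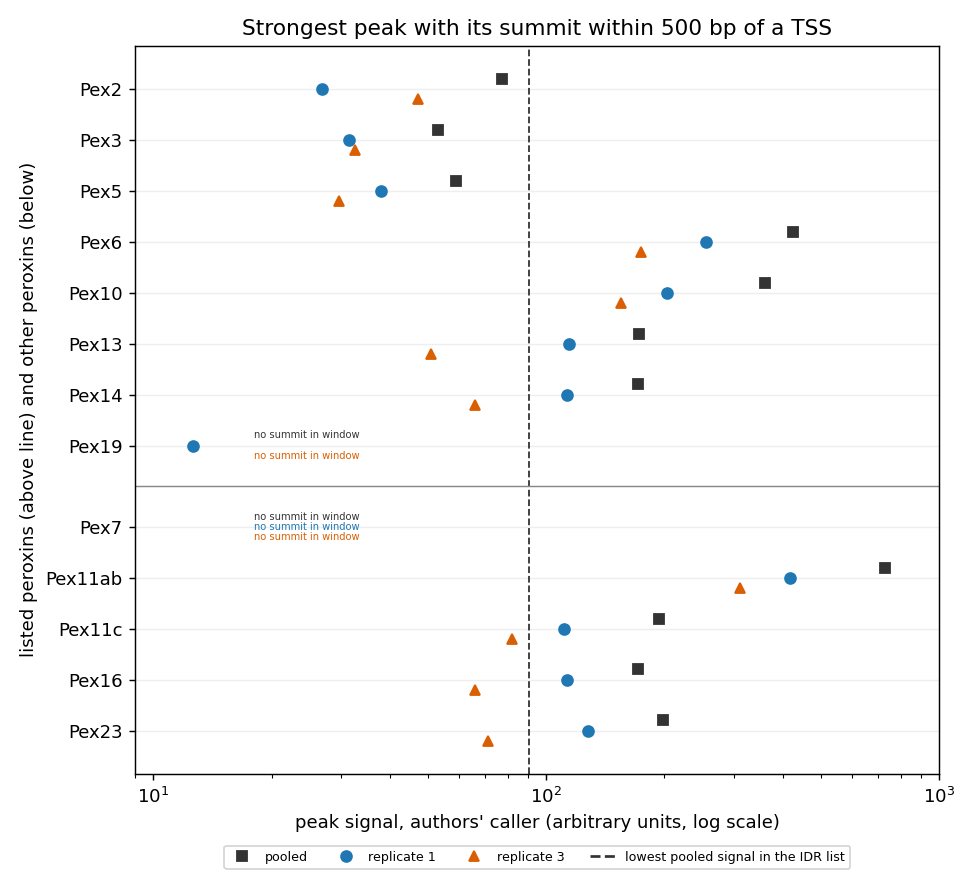
Signal of the strongest peak with its summit within 500 bp of a TSS, on a log scale, for the 8 listed peroxins above the line and 5 others below it. Squares are the pooled list, circles replicate 1 and triangles replicate 3; the dashed line is the lowest pooled signal in the IDR list, 90.3, and Pex6, Pex10, Pex13 and Pex14 have their squares to the right of it.

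The cargo receptor gene Pex5, on X, had its nearest IDR summit 6865 bp away. Its pooled summit lay in a coding exon of the gene, 57 bp upstream of its second TSS. The TSS of CG14803, on the other strand, was 10 bp from the summit on its other side. The strongest summit in the window had a signal of 59.1 in the pooled list, 38.0 in replicate 1 and 29.8 in replicate 3, at ranks of 8003, 7032 and 7777, all below the 4574 strongest. It was at the same base in the pooled list and replicate 1, but in replicate 3 it lay 85 bp downstream of the second TSS, in the 5' UTR. The replicate 3 summit nearest to the pooled one lay 117 bp upstream of that TSS and had a signal of 11.1 at rank 29661. Pex7, which in yeast and mammals is the receptor for an N-terminal targeting signal, had no summit within 500 bp in any of the lists, and its nearest pooled summit was 2627 bp away.

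Of the 7 listed genes with a pooled summit in the window, the membrane assembly gene Pex3 had the lowest signal. Pex19, which acts with it, had no pooled summit there. Pex3 had a pair of pooled summits, 288 bp upstream of its TSS with a signal of 53.0 and 343 bp downstream with 41.6. The stronger was 8 bp from the TSS of CG32147, so this gene was nearer. In replicate 1 the strongest summit in the window lay 487 bp upstream with a signal of 31.4, and in replicate 3 it lay 324 bp downstream with 32.7. The strongest summit of Pex3 was therefore not at the same place in both replicates. Both also had a weaker summit at or near the stronger pooled one, 281 bp upstream with a signal of 25.8 in replicate 1 and 288 bp upstream with 26.1 in replicate 3. Pex19, on 2L, had a summit in the window in replicate 1 alone, 190 bp downstream of its TSS and in its 5' UTR, with a signal of 12.6 at rank 25652 of 30000. Replicate 3 and the pooled list had none, and their nearest summit lay 676 bp upstream of the second Pex19 TSS, in an intron, and its signal was 16.1 in replicate 3 and 19.99 in the pooled list. The nearest IDR summit was 9800 bp away and nearest to ThrRS, which encodes the threonyl-tRNA synthetase. Pex16, by contrast, had its IDR summit 86 bp upstream of the TSS in the peak shared with Pex14, so the 3 membrane assembly genes differed among themselves.

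**Figure D2:**
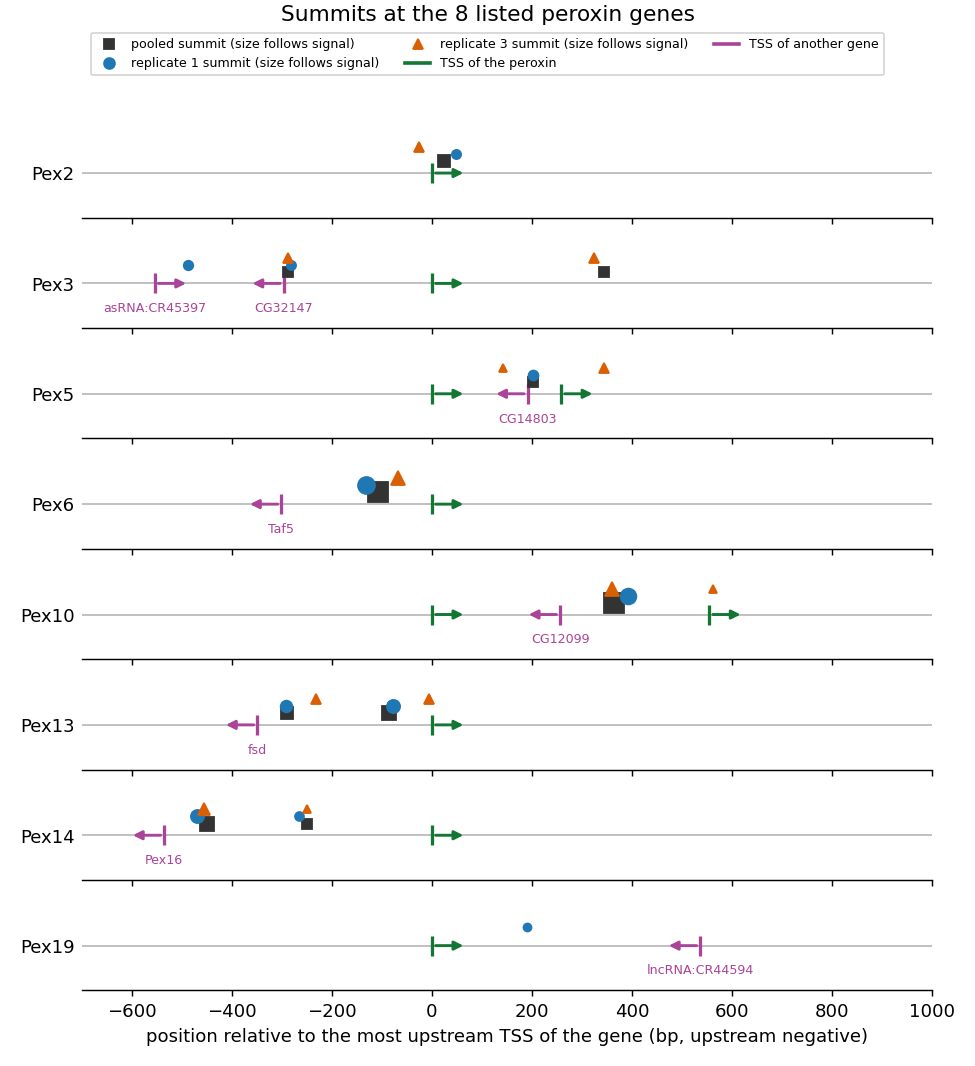
Positions of all summits within 500 bp of a TSS of each of the 8 genes, in bp from the most upstream TSS of the gene, with the direction of transcription to the right. Squares are pooled, circles replicate 1 and triangles replicate 3, their size follows the signal, and arrows are the TSSs of the peroxin and of other genes; the IDR summits of Pex6, Pex10, Pex13 and Pex14, each at the largest square of its gene, lie between starts that point away from each other.

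Of 5 peroxins analysed outside the list, 4 also had an IDR summit in the window: Pex11ab, Pex11c, Pex16 and Pex23. Across protein-coding genes the share was 21.4%. Pex11ab and Pex11c belong to the family that elongates peroxisomes before they divide. The Pex11ab peak, on 2R at 15992307 to 15992688, was stronger than that of any of the 8 listed genes, with a signal of 726.6 in the pooled list, 417.7 in replicate 1 and 312.0 in replicate 3. Its summit was 143 bp upstream of Pex11ab, in an intron of CG8320 and 110 bp inside that gene. Pex11c had a signal of 193.8 in the pooled list, 111.1 in replicate 1 and 82.0 in replicate 3, with the summit 126 bp upstream of its TSS and 152 bp from that of wda, a subunit of the SAGA histone acetyltransferase complex. Pex23 had a signal of 198.0 in the pooled list, 127.4 in replicate 1 and 71.0 in replicate 3, with the summit 93 bp upstream of its TSS and 197 bp from that of SCCRO4.

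A shared feature of the IDR peaks of the peroxins was their place between start sites that point away from each other. All 4 IDR peaks of the listed genes lay between a TSS on the minus strand to the left and a TSS on the plus strand to the right, both within 500 bp. So did 6 of the 7 peaks at the 8 peroxins described with an IDR summit, with Pex11ab as the exception. Among all 2649 IDR promoter peaks, 846 (31.9%) did. The start sites come from the annotation and not from the peaks, but this comparison was added after the peaks were seen. Of the 8 genes, 6 (75.0%) had another gene's start on the other strand within 600 bp upstream of a TSS. The share of protein-coding genes with such a neighbour was 32.8%. Of these 6, 4 had an IDR summit, and of Pex2 and Pex19, which had no such neighbour, neither did. Pex14 was counted among the 6 with its neighbour's start 535 bp away, beyond the 500 bp window used elsewhere. At 500 bp Pex14, with its IDR summit, would have stood beside Pex2 and Pex19 among the genes without such a neighbour. No distance other than 600 bp was tried, so the split rests on that choice. Among protein-coding genes 39.2% of 4586 with such a neighbour had an IDR summit and 12.8% of 9400 without. Divergent starts went without an IDR summit at Pex3, Pex5 and Pex7. These shares were not tested, and a summit between divergent starts counts for both genes. When a summit was given only to the gene with the nearest TSS, Pex6 and Pex13 were left, or 2 of 8, against 16.0% of protein-coding genes.

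**Figure D3:**
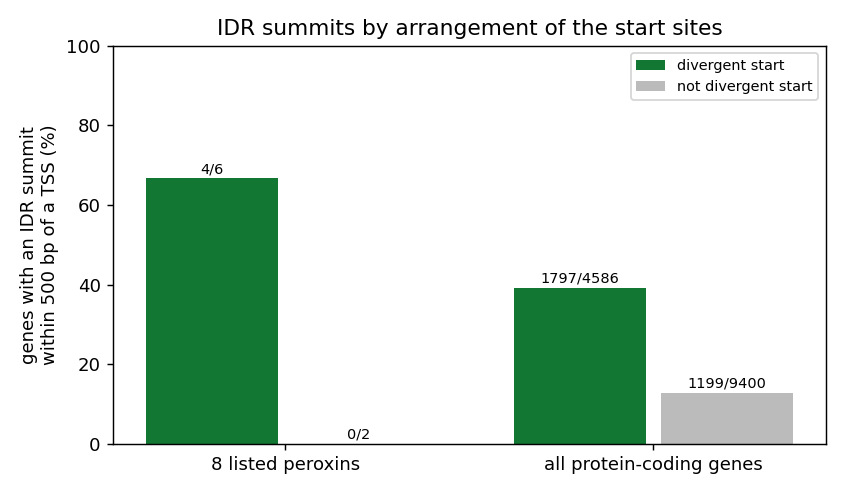
Share of genes with an IDR summit within 500 bp of a TSS, split by whether another gene starts on the other strand within 600 bp upstream, for the 8 listed peroxins and all protein-coding genes. Numbers above the bars are genes with a summit over genes in the class; in the first class these are 4 of 6 and 1797 of 4586.

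Genes for other peroxisomal functions also had IDR summits, 10 of 19 in lists written from general knowledge, against 21.4% of protein-coding genes. Earlier results of these data were known when the lists were written, so the count is a description and was not tested. Of 9 genes of fatty acid oxidation, 6 had one. The strongest were Amacr, an acyl-CoA racemase (141.9), ScpX, a thiolase (135.1), and the acyl-CoA oxidases Acox57D-p (119.8) and Acox3 (111.4). Among 6 ether lipid and other enzymes, 3 had one. These were the catalase gene Cat with a signal of 404.8, CROT, a carnitine acyltransferase, with 312.0, and Gnpat, which starts ether lipid synthesis, with 115.7. The summit at Cat lay in an intron 314 bp inside the gene. Of 4 division genes, Drp1, the fission GTPase, had one, with a signal of 90.8 at the edge of the list. With the stronger 50% of the IDR peaks alone, the same 4 listed peroxins remained, against 2 of these 19 genes and 12.8% of protein-coding genes.

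**Figure D4:**
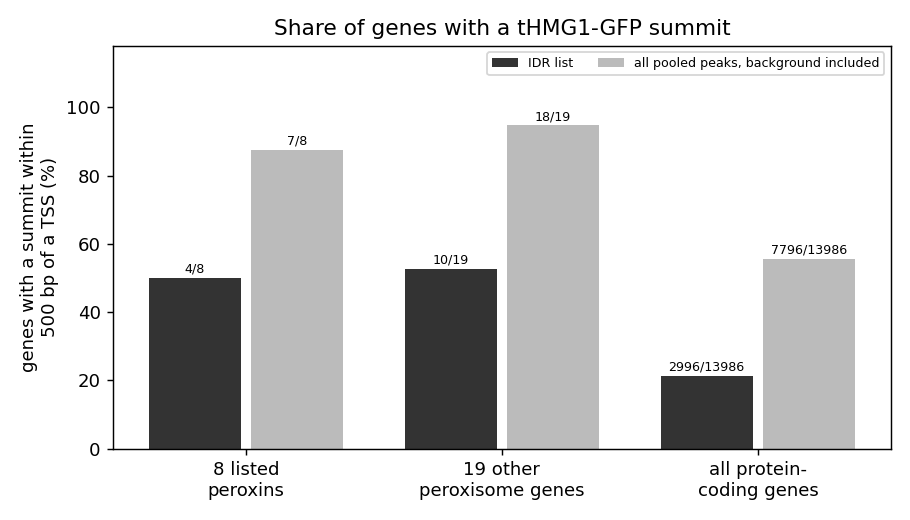
Share of genes with a summit within 500 bp of a TSS in the IDR list (dark) and in the whole pooled list (light), for the 8 listed peroxins, 19 other peroxisome genes and all protein-coding genes. Counts stand above the bars; in the IDR list they are 4 of 8, 10 of 19 and 2996 of 13986.

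The sequence at the summits was searched for 10 motifs on both strands, in 200 bp around the pooled summit of the 7 listed genes that had one. The letters CGATA, the core of sites for the insulator protein BEAF and part of the DNA replication-related element (DRE), were found at Pex2, Pex3, Pex5, Pex10 and Pex14, or 5 of 7. Of these genes only Pex10 and Pex14 had an IDR summit. The windows at Pex2, Pex3 and Pex5 were centred on pooled summits outside the IDR list. CGATA was in 34.9% of all IDR promoter summit windows and 39.3% of windows of the same length centred on the most upstream TSS of protein-coding genes. Pex5 held 4 such matches and Pex2 a pair. The TATA box letters TATAAA were found at Pex2, Pex6 and Pex13, against 35.0% of IDR promoter windows and 29.1% of TSS windows. The SRY-type HMG-box letters AACAAT were found at 1 of the 7, Pex13, against 24.1% and 21.5%. In windows of 100 bp, CGATA was left at 3 of 7, Pex2, Pex5 and Pex10, of which Pex10 alone had an IDR summit. At that length CGATA was in 19.7% of IDR promoter windows and 25.6% of TSS windows. AACAAT was left at 0 of 7, against 12.8% and 10.1%. The whole DRE (TATCGATA), the E-box (CACGTG), the GAGA repeat (GAGAGAG), the CA repeat (CACACACA), a run of A (AAAAAAAA), M1BP and Ohler 6 had no match at any of the 7 in this window; they were in 0.793% to 12.2% of IDR promoter windows and 1.67% to 9.94% of TSS windows. These matches are letters in a window and say nothing of which protein was there. G and C made up 22.0% of the window at Pex6, 33.5% at Pex10, 35.5% at Pex13 and 36.5% at Pex14. The share was 30.5% at Pex2, 41.0% at Pex3 and 45.0% at Pex5, whereas the median was 36.5% over IDR promoter summits and 41.0% over TSS windows. At the 4 genes with an IDR summit no window was thus richer in G and C than the median of IDR promoter summits.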

How the data were processed

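ChIP-seq peak lists of 2 replicates of 1 group were used. Per the file names and labels, the authors deposited lists of build dm6 for each replicate, for the pooled replicates and after IDR. The peak signal is the deposited value of the authors' caller, whose name, like the aligner, the read filters and the IDR threshold, is not given in the sources used here. The IDR rows equal the strongest rows of the pooled list in signal. The 4 dm3 lists were not used. No controls were analysed here. Depth per sample is unknown, so no interval is given for a signal.

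Genes and TSSs came from Ensembl release 115 without transposable elements, symbols were matched through RefSeq synonyms, and sequence came from the RefSeq release 6 assembly, within whose arms every peak lay. A summit is peak start plus offset. For each gene and list, the strongest summit within 500 bp of any TSS was taken, and replicate ratios used the strongest replicate peak overlapping the pooled peak by at least 1 bp. Counts were checked on planted peaks. No test was run, because the listed genes, lists and motifs were chosen with earlier results of these data known. The divergent-start comparison was added after the peaks were seen. Named are the peroxins analysed, TSS neighbours of their summits, up to 4 genes of each other list by signal, and the promoter peaks next in rank to the strongest. Some genes of the pathway are not reported here, so counts over the other lists are not counts of the whole family. Alternatives were other windows, lists, TSS rules and motif windows. Python 3.11.15, numpy 2.4.6, pandas 2.3.3, scipy 1.17.1 and matplotlib 3.10.9 were used.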

Additional observations from a re-analysis of the deposited data

How the results depend on the processing

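The count of listed peroxins with a summit was 4 of 8 in the IDR list, 3 with a 250 bp window (Pex14 left), and 4 with a 1000 bp window, with the stronger 50% of the peaks, with 1 TSS per gene and with any peak base in the window. It was 2 with the nearest gene only, 7 with all pooled peaks, and, chosen after seeing the data, 8 with all peaks of replicate 1 and 7 with all peaks of replicate 3. Without replicate 1 or without replicate 3 it was 5 and 4. The other peroxins analysed gave 4 of 5, and 3 with the nearest gene only. The other peroxisome genes, 10 of 19, gave 2 with the stronger 50%, 18 with all pooled peaks, 19 with all of replicate 1 and 18 with all of replicate 3. The share of protein-coding genes, 21.4%, was 17.4% at 250 bp, 24.6% at 1000 bp, 12.8% with the stronger 50%, 19.0% with 1 TSS, 23.0% with any peak base, 16.0% with the nearest gene, 55.7% with all pooled peaks, 55.2% with all of replicate 1 and 54.0% with all of replicate 3, and 20.7% without replicate 1 and 21.7% without replicate 3. The median signal of the 4 peaks, 266.0 in the pooled list, was 110.3 without replicate 1 and 159.0 without replicate 3, on the scales of those lists. All 7 windows at listed peroxins held at least 1 of the 10 motifs at 200 bp and at 300 bp, and 4 did at 100 bp. The share of all IDR promoter or TSS windows with at least 1 motif was not computed. These counts therefore have no background and do not set the listed genes apart. By motif, CGATA fell to 3 of 7 and AACAAT to 0 at 100 bp, and the E-box and Ohler 6, absent at 200 bp, had 1 of 7 each at 300 bp. No paired analysis was possible because there was 1 group. Without read counts, a weak or missing summit, as at Pex19, cannot be told from low depth.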
